A study of Mus musculus with 36 samples.

Results

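Induced regulatory T cells (iTreg) and pathogenic Th17 cells (Th17p) were compared while both grew with DFMO (difluoromethylornithine). All 6 libraries of these groups entered, 3 of iTreg with DFMO and 3 of Th17p with DFMO, of 18 libraries in the series. They are 12 of 36 deposited samples, because every library was sequenced in 2 runs that were summed here. The cells were naive splenic CD4 T cells (CD44- CD62L+ CD25-) of wild-type C57BL/6 mice, stimulated with antibodies to CD3 and CD28. iTreg cultures received TGF-beta 1 at 2 ng/ml and no IL-6, whereas Th17p cultures received IL-6 at 25 ng/ml, IL-1b at 20 ng/ml and IL-23 at 20 ng/ml. Both were kept with 100 µM DFMO for 68 h, and sorting for viability preceded the preparation of full-length RNA libraries. The same 3 animals gave cells to each group. Vehicle cultures of the same lineages (3 libraries each) were used where the difference under DFMO was set against the difference without it. The lineages differ in all 4 cytokines at once, so that an effect of 1 cytokine and an effect of the lineage cannot be told apart.

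DFMO inhibits ornithine decarboxylase (Odc1), which makes putrescine, the first of the polyamines. Spermidine and spermine follow from putrescine with a group taken from decarboxylated S-adenosylmethionine, the product of Amd1, and spermidine is also the source of hypusine, a modified residue of the translation factor Eif5a. Th17 cells take their name from the cytokine IL-17, whereas iTreg cells suppress immune responses and are defined by the factor Foxp3. TGF-beta signals through Smad proteins, IL-6 and IL-23 through Stat3, and IL-1 through NF-kappaB.

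Levels are CPM, read counts scaled by library depth and by edgeR's TMM scaling factor, and 3 values in a row belong to animals 1, 2 and 3. Differences are log2 of iTreg over Th17p ± standard error (SE) with n = 3 animals a group. A negative value means lower in iTreg cells. Each SE was worked back from the difference and its edgeR test, in a fit of all 18 libraries. It is therefore approximate, most of all where a group had few counts. A gene was called, and is written of as higher or lower, when edgeR's quasi-likelihood test gave it a p below 0.05 after Benjamini-Hochberg adjustment over 11526 tested genes. The 6 libraries held 8307633 to 13986923 estimated counts. Positions are on GRCm38. CPM values are scaled shares of a library's RNA, and fewer cells of a type and less RNA per cell cannot be told apart in such bulk samples.

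Under DFMO 3864 genes were called between the lineages, which is 33.5% of the genes tested. Of these, 1804 were higher (15.7%) and 2060 were lower (17.9%) in iTreg cells. The difference was at least 2 on the log2 scale for 344 of the higher genes and at most -2 for 443 of the lower ones. The 3 iTreg libraries did not overlap the 3 Th17p libraries in 5119 of the 11526 tested genes, of which 3679 were called. The counts were 1121 and 1216 without animal 2. On log2 TPM the split was 845 higher and 2751 lower, and there the median of all genes lay at -0.182, against -0.033 in the edgeR fit. The shares of 15.7% higher and 17.9% lower are the background for every list count below. In vehicle they were 14.5% and 15.7%. Lists near the background do not stand out from all genes, such as translation initiation (13.6% and 13.6%) and MHC class I and antigen processing (11.8% and 17.6%).

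Foxp3 (chromosome X, 7573644 to 7595245) checked the labels. It stood at 483, 476 and 274 CPM in iTreg cells and at 2.35, 0.917 and 3.06 CPM in Th17p cells. No library of a group came near the other group, and the difference was 7.65 ± 0.43 (edgeR adjusted p = 1.6e-08). Of 26 tested genes of a Treg signature, 14 were higher and 7 lower in iTreg cells, with a median of 0.71; without animal 2 the higher count was 9. Lrrc32, which holds latent TGF-beta on the Treg surface, stood at 114, 87.3 and 64.1 CPM against 5.70, 5.64 and 4.26 CPM (4.08 ± 0.22). Ikzf4, which encodes the Foxp3 partner Eos, stood at 166, 182 and 148 CPM against 47.5, 34.4 and 42.3 CPM (2.00 ± 0.12). Nrp1, a semaphorin receptor found on Treg cells, was at 359.9, 362 and 298 CPM against 46.7, 33.2 and 45.0 CPM (3.03 ± 0.38). The Th17p libraries of these 3 genes all lay below the lowest iTreg library. Capg, an actin-capping protein (1.77 ± 0.13), and Ebi3, a subunit of IL-27 and IL-35 (1.21 ± 0.20), were also higher.

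Several genes of Treg function went the other way. Ctla4, the inhibitory receptor for CD80 and CD86, stood at 39.0, 42.0 and 41.3 CPM in iTreg and 206, 199.5 and 180.0 CPM in Th17p cells (-2.26 ± 0.18). Tigit, another inhibitory receptor, stood at 2.24, 2.82 and 2.53 CPM against 56.4, 38.0 and 57.1 CPM (-4.30 ± 0.39). Icos (-1.33 ± 0.09), Tnfrsf4 (-1.02 ± 0.14), Tnfrsf18 (-0.71 ± 0.16), the repair factor Areg (-6.29 ± 0.75) and the TGF-beta activating integrin chain Itgb8 (0 counts in iTreg and 64 in Th17p libraries) were lower as well. Il2ra, the IL-2 receptor chain CD25, was at 914, 1017 and 1185 CPM against 1043, 964 and 1030.0 CPM. These values overlapped and did not pass (0.04 ± 0.10, edgeR adjusted p = 0.82).

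Most cytokines of Th17 cells were close to absent from iTreg libraries. Il17a (chromosome 1, 20730905 to 20734496) stood at 0, 0.083 and 0 CPM in iTreg and 26.0, 10.2 and 16.9 CPM in Th17p cells. The Th17p to iTreg ratio of counts was 520.3 (95% counting interval 93.0 to 20580); the call was lost without animal 1 (edgeR adjusted p = 0.05). Il17f stood at 4.47, 13.9 and 2.71 CPM against 174, 188 and 117 CPM (-4.46 ± 0.45), with animal 2 the highest in both groups. Il22 was at 0, 0 and 0.0873 CPM against 307, 149 and 224 CPM, a ratio of counts of 6780 (95% counting interval 1216 to 267800) in favour of Th17p. Il21, which feeds back on Th17 cells through Stat3, was at 0, 0 and 0.175 CPM against 158, 130.1 and 156 CPM, a ratio of 2304 (95% counting interval 638 to 19030). Il23r, the specific chain of the IL-23 receptor, was at 0, 0 and 0.0873 CPM against 13.1, 11.8 and 10.7 CPM, a ratio of 371.9 (95% counting interval 66.4 to 14720). In each of these genes every Th17p library lay above every iTreg library.

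Of 26 tested Th17 signature genes, 18 were lower and 6 higher in iTreg cells (median -2.15). Batf, an AP-1 factor needed for Th17 cells, stood at 17.0, 23.2 and 29.2 CPM against 162, 142 and 149 CPM (-2.69 ± 0.13). Hif1a (-2.39 ± 0.13), Nfkbiz (-2.02 ± 0.13), Il24 (-4.21 ± 0.35), Fosl2 (-3.70 ± 0.21) and Bhlhe40 (-2.28 ± 0.27) were lower too. The signature genes higher in iTreg cells were the chemokine receptor Ccr6 (140.5, 113 and 94.6 against 17.9, 14.5 and 16.3 CPM, 2.84 ± 0.20), its ligand Ccl20 (3.28 ± 0.89), the aryl hydrocarbon receptor Ahr (1.43 ± 0.33), the vitamin D receptor Vdr (1.06 ± 0.31), Tmem176a (4.32 ± 0.66) and Tmem176b (4.05 ± 0.50). Ccl20 was not called without animal 1 or without animal 2 (edgeR adjusted p = 0.1 and 0.14), nor was Vdr (edgeR adjusted p = 0.063 and 0.23), and Ahr was not called on log2 TPM.

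Of 21 tested genes of pathogenic Th17 cells, 13 were lower and 3 higher in iTreg cells (median -2.32). Gzmb, the protease granzyme B, stood at 0.124, 1.83 and 0.96 CPM in iTreg and 67.2, 53.7 and 78.5 CPM in Th17p cells (-5.95 ± 0.74). Tbx21, which encodes T-bet, was at 2.36, 4.07 and 6.90 CPM against 35.9, 40.1 and 31.2 CPM (-2.98 ± 0.44). Stat4, which carries IL-12 and IL-23 signals (-2.32 ± 0.28), Lag3 (-2.58 ± 0.46) and Casp1, the protease that matures IL-1b (-3.86 ± 0.75), were lower. The higher genes were Sgk1, a kinase downstream of the IL-23 receptor (3.80 ± 0.48), Ccl9 (2.59 ± 0.91) and Tnf (0.40 ± 0.10). Without animal 2 only Sgk1 of these 3 was called, and Lag3 was not (edgeR adjusted p = 0.057). Csf2 and Ifng, cytokines often named for pathogenic Th17 cells, were at most 0.96 CPM in any of the 6 libraries and were too low to be tested. Il10 was at most 0.681 CPM and did not pass (edgeR adjusted p = 0.087). Of 9 tested non-pathogenic Th17 genes, 5 were higher and 1, Cxcl10, was lower (at least 26.8-fold, from 0 iTreg counts). Il9, a cytokine gene of that list, stood at 580.2, 559 and 498 CPM in iTreg and 61.1, 27.2 and 53.5 CPM in Th17p cells (3.54 ± 0.26). The lists share members, such as Il23r and Il22, so their counts are not separate evidence.

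**Figure D1:**
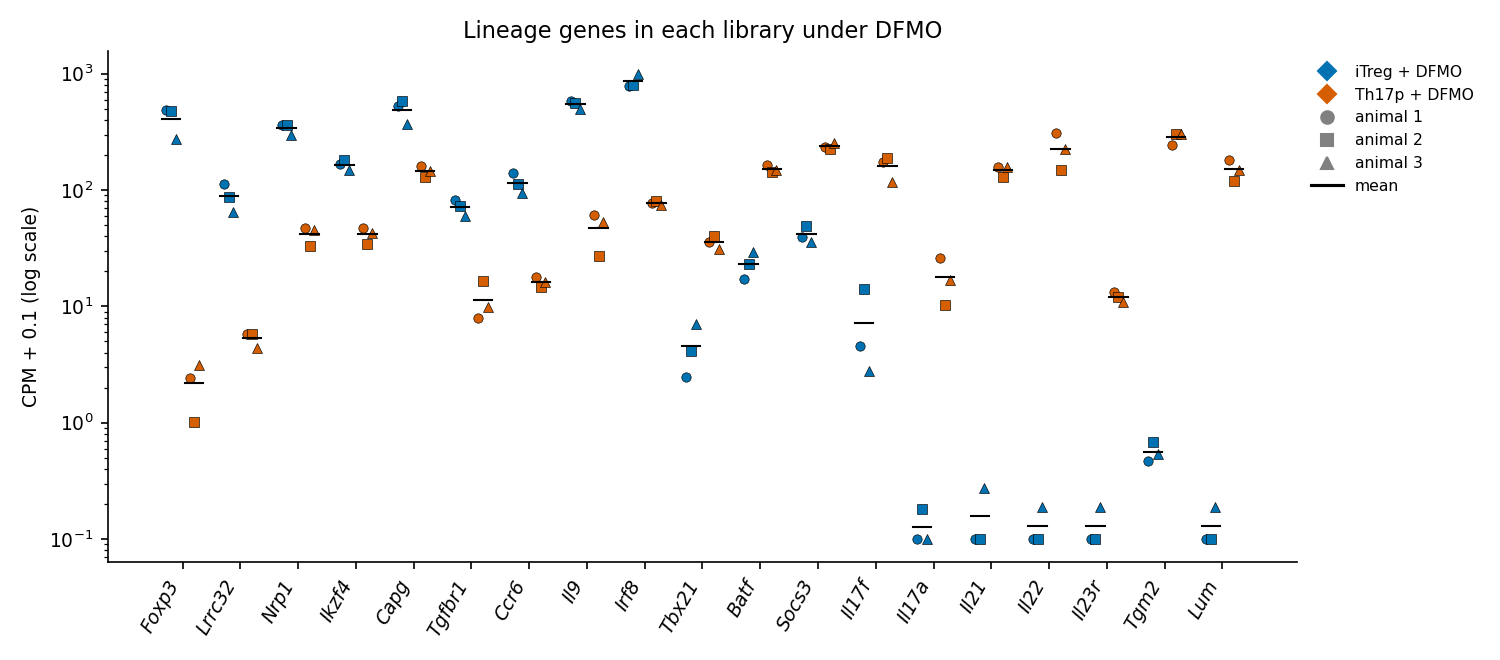
CPM plus 0.1 on a log axis for 19 lineage genes in each of the 6 DFMO libraries; colours are the lineages, marker shapes the 3 animals and black bars the means. The iTreg libraries lie above the Th17p libraries for Foxp3 to Irf8 and below them for Tbx21 to Lum, with no overlap in any of the 19 genes. All 19 were picked from called genes, and 3679 of all 3864 called genes have no overlap either.

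Of 29 tested lineage transcription factors, 11 were higher and 10 lower in iTreg cells. Satb1, a chromatin organiser of T cells, stood at 34.0, 27.3 and 36.6 CPM in iTreg and 396, 357 and 394 CPM in Th17p cells (-3.55 ± 0.13, edgeR adjusted p = 5.5e-14). Irf8 stood at 791, 796 and 994 CPM against 77.3, 80.6 and 75.0 CPM (3.47 ± 0.21), and Tead1, a factor of the Hippo pathway, at 33.0, 29.1 and 25.9 CPM against 2.68, 1.34 and 2.64 CPM (3.75 ± 0.43). Nfil3 (-2.97 ± 0.27), Id2 (-1.75 ± 0.16), Runx3 (-1.34 ± 0.22), Id3 (-1.17 ± 0.22) and Irf4 (-0.74 ± 0.08) were lower, and Ikzf3 (0.90 ± 0.17), Runx1 (0.75 ± 0.13) and Tcf7 (0.54 ± 0.12) were higher.

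Receptors for the supplied cytokines and for IL-2 differed in both directions, with 4 of 15 tested genes higher and 5 lower in iTreg cells. IL-2 is not among the cytokines named above for these cultures. Tgfbr1, a TGF-beta receptor chain, stood at 81.6, 72.4 and 60.2 CPM in iTreg and 7.82, 16.4 and 9.71 CPM in Th17p cells (2.64 ± 0.21), and Tgfbr2 was higher (0.66 ± 0.15). The IL-6 receptor chains Il6ra (1.27 ± 0.19) and Il6st (1.57 ± 0.19) were higher in the cells that received no IL-6. The IL-1 receptor Il1r1 (-3.95 ± 0.72) and the chain Il12rb1 that IL-12 and IL-23 receptors share (-1.46 ± 0.27) were lower, with Il23r. The IL-2 receptor chains Il2rb (-0.70 ± 0.09) and Il2rg (-0.30 ± 0.09) were lower too. Il12rb1 was not called without animal 2 (edgeR adjusted p = 0.064), nor was Il2rg without animal 3 (edgeR adjusted p = 0.11).

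Targets of TGF-beta, which only iTreg cells received, were split, with 8 of 20 tested genes higher and 7 lower (median 0.47); 5 were higher without animal 2. Skil, a Smad co-repressor induced by Smads, was at 186, 191 and 171 CPM against 94.98, 88.7 and 105 CPM (0.93 ± 0.10). Id1 (2.502 ± 0.26), Ldlrad4, a brake on Smad signalling (3.26 ± 0.32), and the co-repressor Ski (0.55 ± 0.13) were higher, and Id2, Id3 and Itgb8 were lower. Smad7, the inhibitory Smad, was at 10.7, 9.05 and 9.52 CPM against 8.04, 5.43 and 6.98 CPM and did not pass (edgeR adjusted p = 0.099). Of 17 tested targets of IL-6 and Stat3, 10 were lower and 1, Myc (0.35 ± 0.09), was higher. Socs3, the feedback inhibitor of IL-6 signalling, stood at 39.6, 48.9 and 35.9 CPM in iTreg and 233, 224 and 254 CPM in Th17p cells (-2.51 ± 0.11).

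IL-1 and NF-kappaB targets were also split, with 4 higher and 6 lower of 20 tested. That is 20.0% and 30.0%, against 15.7% and 17.9% of all tested genes. Nfkbiz, Traf1 (-1.45 ± 0.13) and the kinase Map3k8 (-1.44 ± 0.16) were lower, and Cd83 (2.80 ± 0.29) and Icam1 (0.93 ± 0.10) higher, with Nfkbie and Birc2; without animal 2 only 2 genes were higher. Of 15 tested IL-2 and Stat5 targets, 4 were higher, among them Socs2 (2.78 ± 0.30) and Ccnd2 (1.001 ± 0.10), and 5 lower, among them Pim2 (-0.89 ± 0.12). Il2 itself was at 119.8, 164 and 173 CPM in iTreg and 441, 547 and 402 CPM in Th17p cells (-1.60 ± 0.30).

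Immediate genes of T cell receptor signalling were more often lower than higher in iTreg cells under DFMO, although both cultures had the same antibodies. Of 22 tested genes 13 were lower and 2, Jun (1.22 ± 0.15) and Irf8, were higher (median -0.66). In vehicle 7 were lower and 4 higher (median 0.018). The difference between treatments was called below 0 for 5 and above 0 for 4 (median -0.91). Fos, an AP-1 subunit, stood at 3.11, 0.913 and 2.10 CPM against 21.6, 24.6 and 33.0 CPM (-3.74 ± 0.41). Nr4a2 (-3.97 ± 0.43) and Egr2 (-0.69 ± 0.18), which mark recent receptor signalling, were lower. So were Nr4a1 (-1.41 ± 0.30) and Egr1 (-1.42 ± 0.49), but not without animal 2 (edgeR adjusted p = 0.076 and 0.29). Cd5, which rises with receptor signal strength, was at 316, 387 and 333 CPM against 802, 805 and 801 CPM (-1.22 ± 0.08). Dusp6 (-1.46 ± 0.17) and Spry1 (-0.98 ± 0.21), feedback inhibitors of the MAP kinase pathway, were lower too. For Dusp6 the difference between treatments was above 0 (0.81, edgeR adjusted p = 0.042), so its lineage difference was narrower under DFMO. For Fos it was below 0 (-2.62, edgeR adjusted p = 0.0062), and for Cd5 it did not pass (0.15, edgeR adjusted p = 0.45). Without animal 2 neither the change of Dusp6 nor that of Fos was called (edgeR adjusted p = 0.49 and 0.21).

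Surface receptors other than Treg genes showed large differences. Of 21 tested co-stimulatory and TNF receptor genes 10 were lower and 2 higher, which became 4 with the animal as a block and 1 without animal 2. Cd28 stood at 68.3, 56.3 and 72.4 CPM in iTreg and 245, 324 and 252 CPM in Th17p cells (-2.06 ± 0.11), Slamf1 was lower (-2.44 ± 0.16), and Tnfrsf1b, the second TNF receptor, was at 122, 128 and 106 CPM against 49.7, 46.4 and 48.7 CPM (1.30 ± 0.10). Tnfrsf8, which encodes CD30, was at 0.373, 0 and 0 CPM against 13.1, 14.5 and 15.9 CPM, a ratio of counts of 153.8 (95% counting interval 52.3 to 748) in favour of Th17p. Of 12 tested co-inhibitory receptors 5 were lower, Ctla4, Lag3, Tigit, Cd200 (-1.79 ± 0.16) and Btla (-1.36 ± 0.11), and 3 higher, Cd160 (3.20 ± 0.79), Lair1 (2.99 ± 0.67) and Pdpn (2.58 ± 0.66). None of the 3 higher genes passed without animal 1 (edgeR adjusted p = 0.09, 0.052 and 0.065).

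Chemokine and homing genes were split. Of 23 tested genes 9 were higher and 7 lower in iTreg cells. The receptors Ccr4 (289, 298 and 313 against 96.4, 87.3 and 118 CPM, 1.58 ± 0.11), Ccr6, Ccr8 (1.85 ± 0.28) and Cxcr5 (2.15 ± 0.30) were higher, with Gpr15. Gpr15 was not called without animal 1 or without animal 2 (edgeR adjusted p = 0.07 and 0.067). Receptors of inflamed tissue were lower, among them Ccr2 (1 count in iTreg and 57 in Th17p libraries), as was the eotaxin receptor Ccr3. Ccr1 (-2.95 ± 1.00) and Cxcr3 (-0.59 ± 0.19) were lower too, but not without animal 2 or without animal 3, and 4 genes in all were lower without animal 3. Ccr1 was not called without animal 1 either (edgeR adjusted p = 0.2). Among integrins and adhesion genes, 7 of 20 tested were higher and 4 lower. Itga3 stood at 1.12, 0.581 and 1.48 CPM in iTreg and 116, 142 and 139 CPM in Th17p cells (-6.97 ± 0.26), and Selplg, a ligand of selectins, at 677, 689 and 643 CPM against 299, 281 and 276 CPM (1.23 ± 0.08). Of 13 tested Th1 genes, 5 were higher and 6 lower; Il12rb2, the specific chain of the IL-12 receptor, was at 1.37, 1.08 and 3.58 CPM against 199.7, 198 and 217 CPM (-6.63 ± 0.51), while Il18r1 (2.42 ± 0.37) and Il18rap (2.55 ± 0.44) were higher. Of 10 tested Th2 genes, 3 were higher, Gata3 (0.73 ± 0.22), Ccr4 and Cyp11a1, and 3 lower, the IL-4 receptor chain Il4ra (-0.81 ± 0.09), Il24 and Ccr3; Gata3 was not called without animal 1 or without animal 2 (edgeR adjusted p = 0.071 and 0.21). Of 20 tested genes of naive and memory cells, 5 were higher, among them Foxp1 (0.79 ± 0.10) and Igfbp4 (1.12 ± 0.36), and 4 lower, among them Bach2 (-0.54 ± 0.09); without animal 2 the higher count was 2.

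The genes with the largest differences were mostly outside these lists. Among the 12 largest higher in iTreg cells, Fbln2, a matrix protein, stood at 28.6, 43.6 and 30.2 CPM against 0 in all 3 Th17p libraries, at least 406-fold (against a floor of 3 counts over the group). Pld4, a phospholipase family member, stood at 24.4, 24.8 and 25.4 CPM against 0, at least 289.6-fold. Kynu, the kynureninase of tryptophan breakdown, stood at 44.0, 47.6 and 56.3 CPM against 0.112, 0 and 0 CPM, a ratio of counts of 1738 (95% counting interval 312 to 68710). Vcam1, an adhesion molecule, stood at 45.4, 38.3 and 27.9 CPM against 0, 0.212 and 0 CPM, a ratio of 422.2 (95% counting interval 144 to 2050). Aqp3, a water and glycerol channel, stood at 192, 193 and 65.4 CPM against 0.224, 1.34 and 0.17 CPM (7.82 ± 0.76), and Ctsw, a cathepsin, at 154, 137 and 50.5 CPM against 0.67, 0.353 and 0.766 CPM (7.60 ± 0.66). Rassf4, Rnf180, Apol9b, the chemokines Xcl1 and Ccl1, and Foxp3 complete the 12. Xcl1 stood at 57.8, 68.2 and 11.8 CPM against 0.112, 0.0706 and 0.0851 CPM, a ratio of 523.5 (95% counting interval 179 to 2542). Ccl1 stood at 50.8, 24.8 and 3.40 CPM against 0.112, 0 and 0 CPM, and its call was lost with run 1 alone and without animal 2.

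Animal 3 gave the lowest iTreg value in many of these genes, among them Foxp3, Xcl1, Aqp3 and Ctsw. Of the 344 genes called higher with a log2 difference of at least 2, animal 3 had the lowest iTreg library in 216 (62.8%), animal 1 in 77 (22.4%) and animal 2 in 51 (14.8%). Among the 443 genes lower by at least as much, the lowest Th17p library came from animal 3 in 164 (37.0%), from animal 2 in 142 (32.1%) and from animal 1 in 137 (30.9%).

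Among the 12 largest lower in iTreg cells were the cytokine and receptor genes Il17a, Il21, Il22 and Il23r. Tgm2, a transglutaminase, stood at 0.373, 0.581 and 0.436 CPM in iTreg and 246, 306 and 302 CPM in Th17p cells (-9.19 ± 0.53, 585-fold). Lum, a matrix proteoglycan, was at 0, 0 and 0.0873 CPM against 183, 119 and 149 CPM, a ratio of counts of 4586 (95% counting interval 823 to 181200) in favour of Th17p. Ramp3, a partner of receptors for the adrenomedullin and calcitonin family of peptides, was at 0, 0 and 0.175 CPM against 91.8, 69.6 and 102 CPM, a ratio of 1358 (95% counting interval 376 to 11220). Adm, which encodes adrenomedullin, was at 31.9, 25.2 and 43.1 CPM against 1.56, 2.96 and 1.96 CPM and thus higher in iTreg cells (3.91 ± 0.33). Ly6a, the surface protein Sca-1, was at 8.95, 4.23 and 1.05 CPM against 787, 666 and 603 CPM (-7.27 ± 0.69). Slc17a6, a vesicular glutamate transporter, was at 0, 0.083 and 0.0873 CPM against 35.2, 51.0 and 34.6 CPM, a ratio of 653.3 (95% counting interval 180.5 to 5399), and the factor Sox5 at 0.124, 0 and 0.262 CPM against 32.0, 25.6 and 32.0 CPM (-7.75 ± 0.50). Cdh17 was listed at 0 in the iTreg libraries and was at least 48.9-fold lower. So was GP49A, at least 147-fold lower, a gene with a near-identical copy whose reads could be split between them.

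Interferon response genes were split, with 14 of 35 tested genes higher and 6 lower in iTreg cells. Ifit3 stood at 33.2, 27.2 and 0.436 CPM in iTreg and 0.335, 0 and 0.426 CPM in Th17p cells (6.36 ± 1.39), and the animal 3 library lay at the Th17p level. Rtp4 (5.42 ± 1.18) and Irf7, a factor that amplifies interferon signals (2.68 ± 0.62), were also higher. Ifit3, Rtp4 and Irf7 were not called without animal 1 (edgeR adjusted p = 0.11, 0.12 and 0.14) or without animal 2 (edgeR adjusted p = 0.12, 0.11 and 0.11). Ifi47, an interferon-induced GTPase, was higher in every iTreg library (298, 323 and 210.2 against 81.5, 88.7 and 90.5 CPM, 1.67 ± 0.16). The lower genes held guanylate-binding proteins, Gbp2 (21.7, 24.3 and 19.9 against 103, 143 and 109.7 CPM, -2.43 ± 0.30), Gbp4 (-1.36 ± 0.27) and Gbp5 (-1.48 ± 0.28), with the nucleic acid sensor Zbp1 (-1.50 ± 0.19), Oas3 and Ifih1. Of the list, 6 genes were higher without animal 1 and 5 without animal 2. Of 17 tested genes of MHC class I and antigen processing, 2 were higher, Tapbp (0.91 ± 0.11) and the immunoproteasome subunit Psmb8 (0.40 ± 0.06), and 3 lower, H2-T23 (-0.47 ± 0.09), Calr (-0.49 ± 0.09) and Pdia3 (-0.42 ± 0.09).

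The target of the drug, Odc1 (chromosome 12, 17544794 to 17551505), differed between the lineages under DFMO. It stood at 84.0, 112 and 133 CPM in iTreg and 315, 312 and 319.5 CPM in Th17p cells, and every Th17p library was above every iTreg library (-1.52 ± 0.14, edgeR adjusted p = 6.9e-08). In vehicle it stood at 151, 165 and 172 CPM against 157, 234 and 204 CPM, where the groups overlapped and the difference did not pass (-0.29 ± 0.13). The difference under DFMO minus that in vehicle was -1.24 ± 0.19 (edgeR adjusted p = 0.00064). Amd1 went the other way, at 569.5, 647 and 530.4 CPM in iTreg and 409.5, 418 and 374 CPM in Th17p cells (0.54 ± 0.08), against 156, 154 and 145 and 177, 168 and 158 CPM in vehicle. Its difference under DFMO minus that in vehicle was 0.69 ± 0.12 (edgeR adjusted p = 0.001).

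Of 24 tested polyamine genes, 5 were higher, Amd1 among them, and 7 lower, Odc1 among them; these counts were 6 and 4 without animal 1 and 3 and 5 without animal 2. Smox, the oxidase that turns spermine back to spermidine, was at 8.95, 5.31 and 8.29 CPM against 111, 91.9 and 141 CPM (-3.95 ± 0.26), and in vehicle at 33.5, 33.4 and 36.4 CPM against 279, 398 and 406 CPM. Sms, spermine synthase, was at 224, 243 and 234 CPM against 278, 305 and 270.0 CPM (-0.28 ± 0.08), not called without animal 1 or without animal 2 (edgeR adjusted p = 0.071 and 0.12). Azin1, which protects Odc1 from antizyme, was at 175, 191 and 182 CPM against 231, 267 and 238 CPM (-0.43 ± 0.10), not called without animal 2 (edgeR adjusted p = 0.057). Oaz2, an antizyme, was lower (-0.99 ± 0.17), and Oaz1, the main antizyme, was at 596, 518 and 521 CPM against 594, 544 and 591 CPM and did not pass. Eif5a, the hypusinated factor, stood at 3523, 3615 and 3455 CPM against 2552, 2356 and 2544 CPM (0.51 ± 0.07), with 0.58 ± 0.10 for DFMO minus vehicle (edgeR adjusted p = 0.0012). Without animal 2 the changes of Amd1 and Eif5a were not called (edgeR adjusted p = 0.063 and 0.17), and that of Odc1 was (edgeR adjusted p = 0.037). Ass1, which makes argininosuccinate on the way to arginine, was higher (1.74 ± 0.24).

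For Sat1 and Srm the animals differed more than the lineages. Sat1, the acetyltransferase that starts polyamine breakdown, stood at 216, 24.6 and 262 CPM in iTreg and 450.4, 31.5 and 498 CPM in Th17p cells, with animal 2 the lowest in both groups. It did not pass without the animal in the fit (edgeR adjusted p = 0.64) and was lower in iTreg cells once the fit held the animal (replicate block, edgeR adjusted p = 0.00049). Srm, spermidine synthase, was at 62.6, 57.1 and 138 CPM against 59.9, 65.8 and 159 CPM, with animal 3 the highest in both groups, and did not pass (-0.14 ± 0.62).

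**Figure D2:**
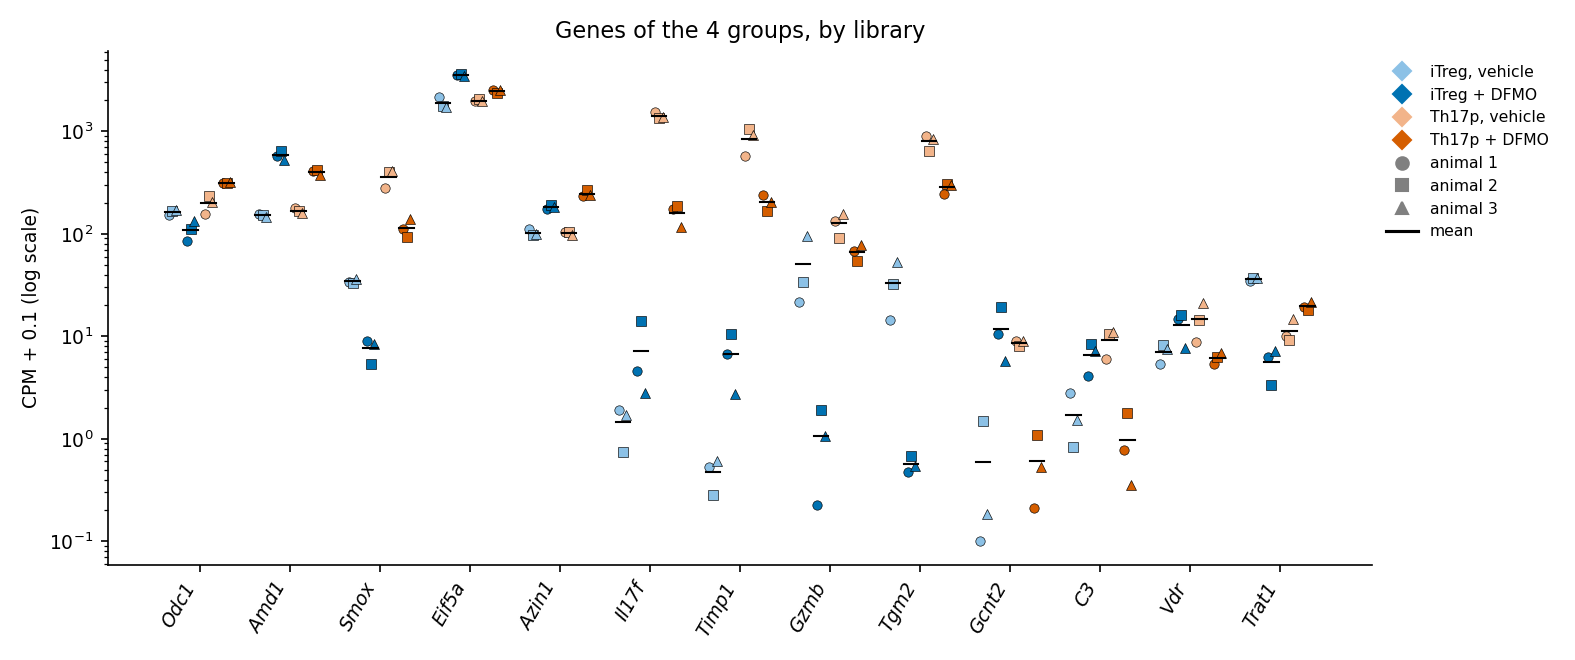
CPM plus 0.1 on a log axis for 13 genes in the 12 libraries of both lineages with vehicle or DFMO; colours are the groups, marker shapes the animals and black bars the means. Odc1 is highest in the 3 Th17p libraries with DFMO, Smox is lower in iTreg than in Th17p libraries under either treatment, and C3, Gcnt2 and Vdr are higher in iTreg cells with DFMO but lower in iTreg cells with vehicle.

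The unfolded protein response, the programme that raises chaperones and disposal factors of the endoplasmic reticulum, was lower in iTreg cells. Of 24 tested genes 20 were lower and 0 higher, with a median of -0.84, against 17.9% lower among all genes. Hspa5 (chromosome 2, 34771970 to 34777547), the chaperone BiP, stood at 582, 664 and 631 CPM in iTreg and 1702, 1608 and 1572 CPM in Th17p cells (-1.38 ± 0.08). Hsp90b1, the chaperone GRP94, stood at 512, 546 and 544 CPM against 1303, 1162 and 1255 CPM (-1.22 ± 0.07), and Pdia6, a disulfide isomerase, at 216, 225 and 218 CPM against 540.2, 454 and 513 CPM (-1.19 ± 0.07). Manf, a secreted stress protein, was at 85.5, 80.6 and 98.8 CPM against 259.9, 204 and 244 CPM (-1.42 ± 0.09). Creld2 (-1.30 ± 0.13), Sel1l (-1.24 ± 0.15), Dnajb9 (-0.95 ± 0.15), Herpud1 (-0.80 ± 0.12) and Ddit3, the stress factor CHOP (13.8, 12.7 and 15.6 against 84.0, 77.9 and 77.3 CPM, -2.504 ± 0.19), were lower too. Dnajc3 (-0.55 ± 0.11) and Canx (-0.21 ± 0.08) were lower by smaller amounts. Canx was not called with any 1 animal left out (edgeR adjusted p = 0.32, 0.096 and 0.088). The sensor Ern1, the factors Xbp1 and Atf4, and Sec61b did not pass. The same list had 21 lower and 1 higher in vehicle, and the change between treatments was called for 1 of its genes, Ddit3 (-1.66 ± 0.25), and not without animal 2 (edgeR adjusted p = 0.057).

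Chaperone genes of this programme are known to carry the endoplasmic reticulum stress element, ERSE, read by Atf6 with NF-Y. It was searched as CCAAT and CCACG with 9 bases between them, on both strands, in the 250 bases before each RefSeq gene start (build GRCm38.p6). It was found in 8 of 22 promoters of the list (36.36%) and in 35 of 27025 genes of the table (0.13%). Stretches of 6 of the 8 are shown, without Calr and Syvn1, to let the shared element be read beside the differences given above. They are written 5′ to 3′ along the gene, with the matched bases in capitals; CGTGG with ATTGG is the match on the opposite strand.

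Hspa5: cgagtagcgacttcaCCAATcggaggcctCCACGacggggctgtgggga
Hsp90b1: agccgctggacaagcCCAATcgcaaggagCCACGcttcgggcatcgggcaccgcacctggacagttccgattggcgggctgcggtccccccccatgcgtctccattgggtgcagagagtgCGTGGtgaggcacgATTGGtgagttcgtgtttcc
Pdia6: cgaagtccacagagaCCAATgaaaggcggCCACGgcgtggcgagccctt
Canx: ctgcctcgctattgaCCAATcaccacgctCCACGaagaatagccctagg
Dnajc3: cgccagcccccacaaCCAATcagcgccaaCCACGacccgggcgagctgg
Creld2: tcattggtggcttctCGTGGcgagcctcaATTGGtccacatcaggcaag

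These stretches lie at chr2:34772010-34772058 (plus strand), chr10:86705518-86705671 (minus), chr12:17266476-17266524 (plus), chr11:50325785-50325833 (minus), chr14:118937812-118937860 (plus) and chr15:88819505-88819553 (plus). Hsp90b1 holds 2 matches, and Creld2 a match on the opposite strand only. Calr and Syvn1 hold a match each as well. Syvn1 (-0.35 ± 0.12) was not called without animal 1 or without animal 2 (edgeR adjusted p = 0.14 and 0.32). Of 16 tested genes with a match anywhere in the table, 11 were lower in iTreg cells under DFMO, 0 were higher and 5 did not pass. Outside the list there were 8 such genes, of which 3 were lower, Derl3 (0.124, 0.415 and 0.436 CPM in iTreg against 3.35, 5.15 and 2.55 CPM in Th17p cells), Alg12 (13.4, 18.8 and 15.4 against 25.7, 30.5 and 29.9 CPM) and Xlr3a, whose groups overlapped (2.24, 1.66 and 1.66 against 1.45, 5.71 and 7.32 CPM). Derl3 moves misfolded proteins out of the endoplasmic reticulum and Alg12 builds the sugar chains attached there; Xlr3a has near-identical copies that can share reads. A match describes these letters and is not shown here to be a site.

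Amino acid response genes, targets of Atf4, were mixed, with 5 higher and 10 lower of 31 tested, and 8 and 5 without animal 1. Phgdh, the first enzyme of serine synthesis, stood at 1467, 1690.0 and 1495 CPM in iTreg and 636, 649 and 624 CPM in Th17p cells (1.29 ± 0.09), and Nupr1 at 89.6, 133 and 83.5 CPM against 17.4, 17.6 and 12.3 CPM (2.69 ± 0.19). Trib3, a pseudokinase that restrains Atf4 (-2.06 ± 0.23), and Ddit3 were lower.

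Glycolysis genes were lower in iTreg cells. Of 22 tested genes 20 were lower and 0 higher (median -0.84), and 13 were lower without animal 2. Aldoa, an aldolase, stood at 769, 927 and 1287 CPM in iTreg and 2341, 2313 and 2313 CPM in Th17p cells (-1.22 ± 0.12). Pkm, pyruvate kinase, stood at 1634, 1929 and 2507 CPM against 4080.0, 4161 and 4466 CPM (-1.07 ± 0.12), Pgk1 at 1016, 1206 and 1597 CPM against 2503, 2443 and 2557 CPM (-0.97 ± 0.11), and the glucose transporter Slc2a1 at 33.4, 45.0 and 66.5 CPM against 109, 104 and 106 CPM (-1.13 ± 0.20). In these 4 genes animal 1 was the lowest and animal 3 the highest iTreg library, and each lay below all Th17p libraries. Aldoc (-2.70 ± 0.31) and Hk2, a hexokinase (-1.22 ± 0.19), were lower too, as was Slc16a3, a lactate exporter (-2.77 ± 0.53), except without animal 2 (edgeR adjusted p = 0.071). In vehicle 12 of these genes were lower, with a median of -0.34, and the difference between treatments was below 0 for 4 and above 0 for 1; for Aldoa it was -0.88 ± 0.17 (edgeR adjusted p = 0.0047, and 0.24 without animal 2).

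Hypoxia genes, many of them targets of Hif1a, followed with 13 of 22 tested lower and 2, Adm and Mxi1 (0.56 ± 0.18), higher; Mxi1 was not called without animal 2 or animal 3 (edgeR adjusted p = 0.1 and 0.19). P4ha2, a collagen prolyl hydroxylase, stood at 0.497, 0.249 and 1.22 CPM in iTreg and 22.1, 19.4 and 23.2 CPM in Th17p cells (-4.99 ± 0.39), Ndrg1 at 6.71, 7.14 and 11 CPM against 165, 145 and 150.2 CPM (-4.19 ± 0.32), and Bnip3, of mitochondrial turnover, was lower (-2.88 ± 0.34). Hif1a was at 129.7, 144 and 163 CPM against 752, 720.2 and 811 CPM.

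Mitochondrial and lipid genes gave mixed results. Of 29 tested TCA cycle genes 8 were higher, among them Suclg2 (0.91 ± 0.09), and 7 lower, among them Idh1 (-1.55 ± 0.25) and Got1 (-0.83 ± 0.10); without animal 2 the higher count was 3. Of 32 respiratory chain genes 9 were higher and 0 lower (median 0.118), but on log2 TPM 2 were higher and 7 lower (median -0.062), and without animal 2 the higher count was 3. Cox5a, a subunit of cytochrome c oxidase, was among the higher (462, 411 and 402 against 309, 256 and 274 CPM, 0.60 ± 0.09). Of 21 fatty acid oxidation genes 7 were lower, among them Cpt1a, the entry enzyme (18.6, 17.2 and 26.4 against 49.2, 57.9 and 48.01 CPM, -1.32 ± 0.16), and 3 higher, among them Eci1 (1.17 ± 0.14). Cholesterol synthesis had 2 higher genes, Idi1 (0.67 ± 0.16) and Ebp (0.40 ± 0.12), and 2 lower, among them Stard4 (-0.45 ± 0.17), of 23 (median -0.13), against 11 higher and 0 lower in vehicle (median 0.52). Under DFMO the counts were 1 higher and 0 lower without animal 2 (median 0.041), and 1 higher and 6 lower without animal 3 (median -0.423) and on log2 TPM (median -0.326). The difference between treatments was called for 3 of its genes, among them Dhcr7, the last enzyme of the pathway (-0.89 ± 0.24), and Srebf2, its transcription factor (-0.51 ± 0.13); without animal 2 neither was called (edgeR adjusted p = 0.36 and 0.36).

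**Figure D3:**
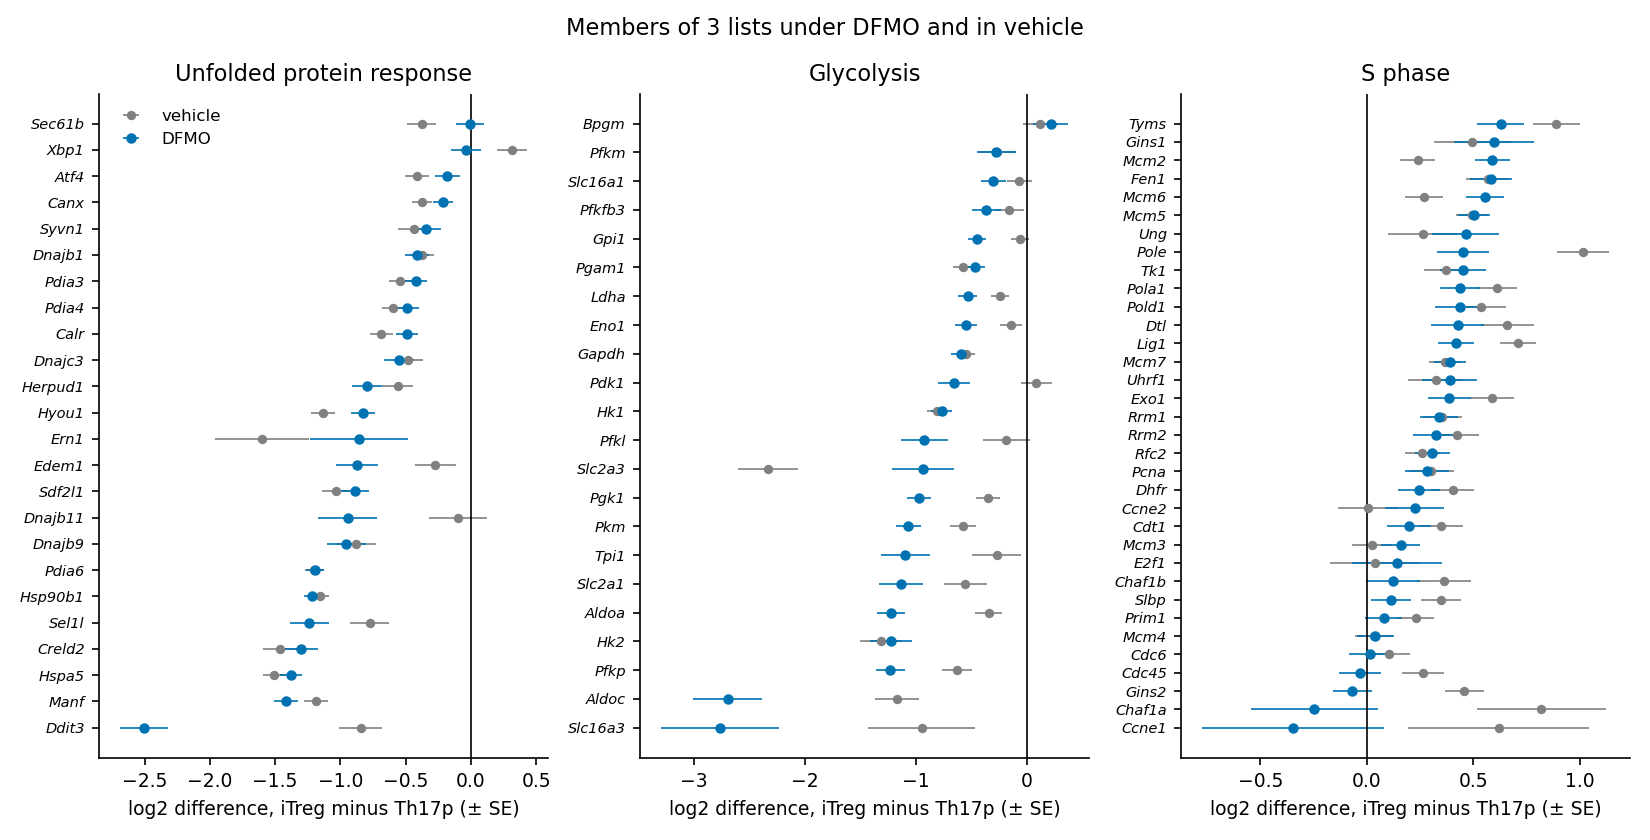
Log2 difference between iTreg and Th17p cells with SE for tested members of the unfolded protein response, glycolysis and S phase lists. Values are under DFMO (blue) and in vehicle (grey), n = 3 animals a group, with each SE worked back from the edgeR test. Under DFMO 20 of 24, 20 of 22 and 0 of 34 members are called lower in iTreg cells, and most glycolysis members lie further below 0 with DFMO than with vehicle.

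Genes of DNA replication and mitosis were higher in iTreg cells by small amounts. Of 34 tested S phase genes 20 were higher and 0 lower (median 0.33), and of 34 G2 and M phase genes tested 17 were higher and 0 lower (median 0.24), or 11 without animal 1 or animal 2. Mcm2, a subunit of the replicative helicase, stood at 526, 571 and 498 CPM in iTreg and 344, 358 and 357 CPM in Th17p cells (0.59 ± 0.08), and Mki67, the proliferation antigen, at 269, 277 and 304 CPM against 193, 239.8 and 220.1 CPM (0.38 ± 0.10, edgeR adjusted p = 0.057 without animal 3). In vehicle 31 members of the G2 and M phase list were higher, and the Mki67 difference under DFMO minus that in vehicle was -0.60 ± 0.14 (edgeR adjusted p = 0.0092, and 0.23 without animal 2). On log2 TPM 5 S phase genes and 2 genes of G2 and M phase were higher and 0 and 1 lower. Cdkn2d, an inhibitor of Cdk4 and Cdk6, was at 73.0, 71.6 and 71.8 CPM against 160.5, 148 and 153 CPM (-1.09 ± 0.07), Cdk6 was lower (-1.03 ± 0.10), and Ccnd2, a D cyclin, at 894, 918 and 1164 CPM against 533, 439 and 516 CPM (1.001 ± 0.10).

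Genes that feed growth were more often higher than lower. Of 26 genes of one-carbon metabolism and nucleotide synthesis 12 were higher, among them Prps1 (347, 364 and 279.5 against 139.6, 149.6 and 139 CPM, 1.21 ± 0.11), and 2 lower. Of 28 ribosome biogenesis genes 13 were higher, among them Dkc1, of RNA pseudouridylation (590.4, 649 and 571 against 393, 382 and 398 CPM, 0.63 ± 0.09), and 1 lower. Without animal 2 these higher counts were 7 and 3, and on log2 TPM 5 and 1. Myc was at 503, 600.5 and 540.4 CPM against 416, 455 and 422 CPM (0.35 ± 0.09), not called on log2 TPM. Of 22 translation initiation genes 3 were higher, Eif5a, Eif4ebp2 (0.46 ± 0.15) and Eif3e (0.20 ± 0.06), and 3 lower, Eif1a (-0.60 ± 0.07), Eif4g2 (-0.26 ± 0.10) and Eif4ebp1 (-0.47 ± 0.13); with the animal as a block 5 were lower, and without animal 2 1 was higher and 1 lower.

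Targets of p53 and genes of cell death were more often lower than higher. Of 25 p53 targets 10 were lower, among them Mdm2, which degrades p53 (-0.80 ± 0.10), Gadd45a (-2.67 ± 0.59) and Perp (-2.46 ± 0.26), and 2 higher, Sesn1 (1.09 ± 0.14) and Ddb2 (0.45 ± 0.17). Ddb2 was not called with any 1 animal left out (edgeR adjusted p = 0.087, 0.24 and 0.099). Of 25 genes of the Bcl2 family and caspases 13 were lower, among them Casp6 (11.9, 7.72 and 6.90 against 58.4, 52.4 and 57.5 CPM, -2.69 ± 0.17). Among the 2 higher was Bid (72.4, 78.2 and 100.4 against 25.0, 23.9 and 22.7 CPM, 1.81 ± 0.16). Without animal 2 the lower counts were 6 and 7. Of 26 histone demethylases, polycomb and DNA methylation genes 5 were higher and 6 lower, or 3 and 3 without animal 2. Kdm6b, a demethylase of histone H3 lysine 27, was at 53.05, 43.7 and 42.4 CPM against 34.0, 37.6 and 39.8 CPM and did not pass (0.32 ± 0.13, edgeR adjusted p = 0.074). Kdm5b (-1.20 ± 0.16) and Jarid2 (-0.82 ± 0.13) were lower, and Dnmt3a (0.48 ± 0.11) higher.

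**Figure D4:**
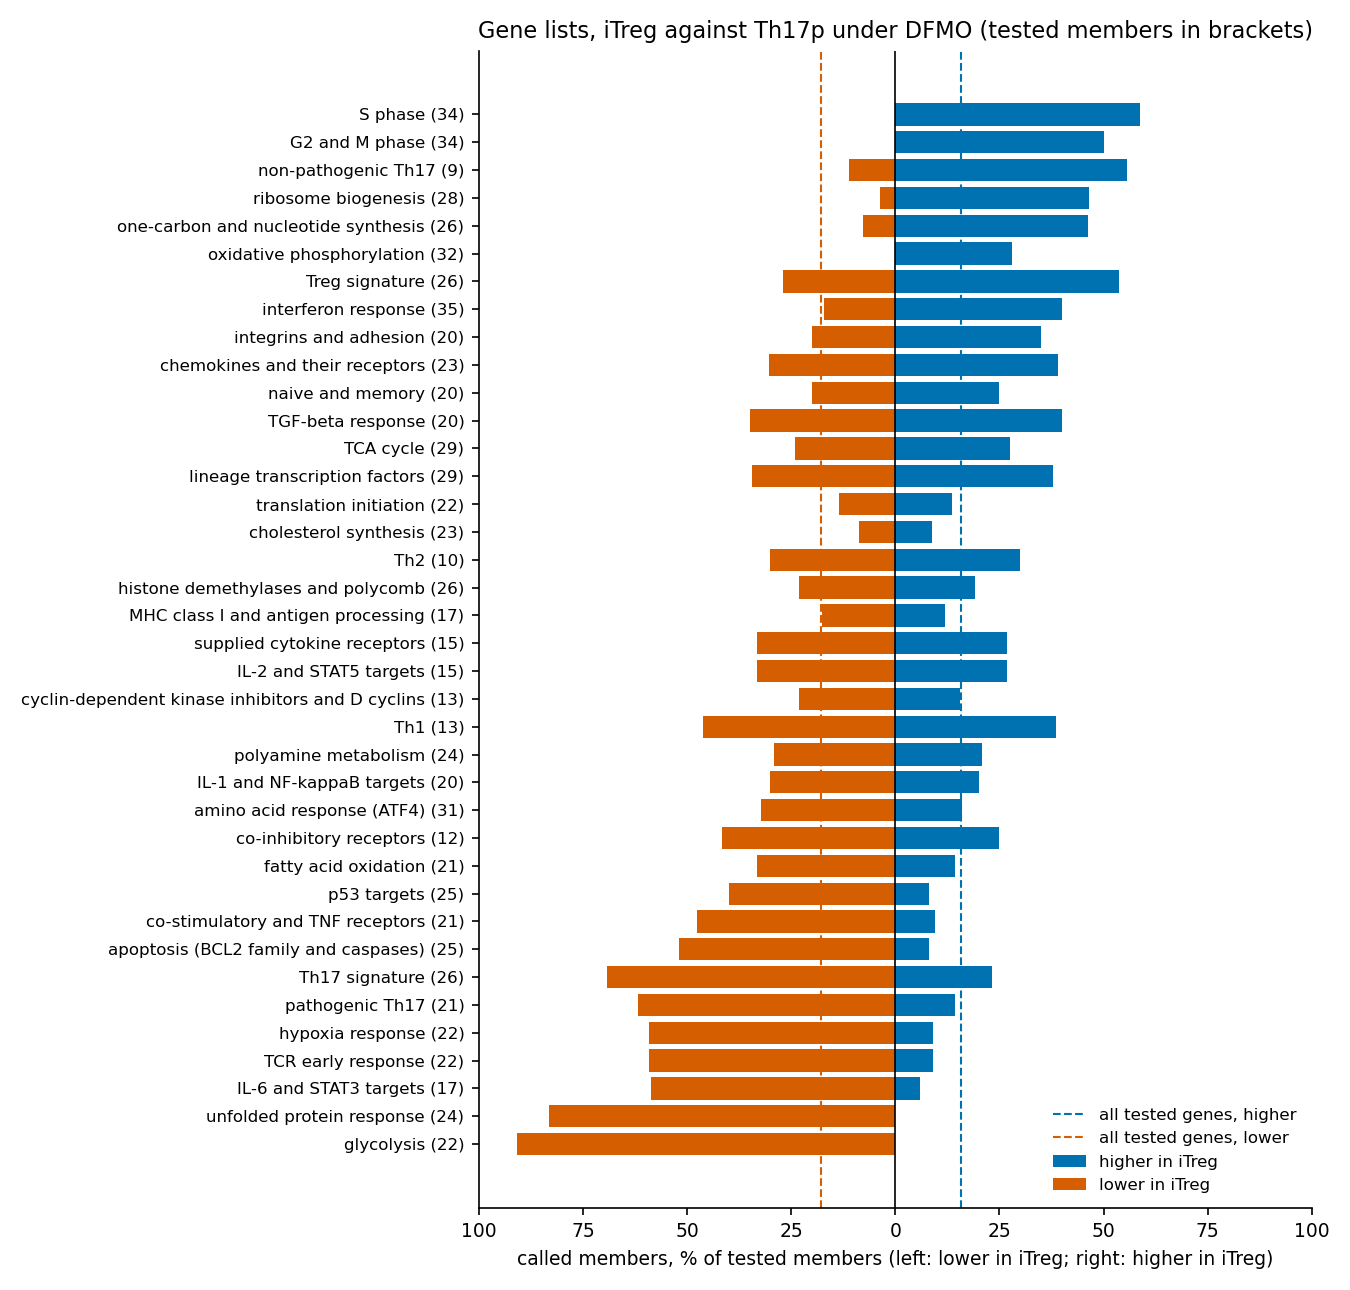
Share of tested members called higher (blue, right) or lower (orange, left) in iTreg cells under DFMO for 38 gene lists, with the number of tested members in brackets; dashed lines are the shares of all tested genes, 15.7% higher and 17.9% lower. Glycolysis and the unfolded protein response have no higher member, and S phase, G2 and M phase and oxidative phosphorylation no lower member.

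The lineage difference with DFMO was then set against the same difference in vehicle, which shares no library with it. In vehicle 3477 genes (30.2%) were called, 1667 higher (14.5%) and 1810 lower (15.7%) in iTreg cells; without scaling factors the split was 2174 and 1477. Of the DFMO calls 52.95% were called in vehicle in the same direction, which is 58.844% of the vehicle calls. A gene called under only 1 treatment is not thereby shown to differ between them. The test of DFMO difference minus vehicle difference called 789 genes (6.85%), 406 above 0 (3.52%) and 383 below 0 (3.32%). Of the 789, 475 had a wider difference between lineages under DFMO and 314 a narrower one, by absolute size whatever the direction. The 789 include 58 genes called in opposite directions under the treatments. The counts depended on the animals, with 67 above and 40 below 0 without animal 2, and 600 and 637 with the animal as a block. All 789 kept their sign without animal 2, and 102 were called again. Without scaling factors the split was 261 above and 678 below, with the median of all genes at -0.149 against -0.025. Of 80 genes named by the rule whose change was called, 61 lost the call without animal 2, 32 without animal 1 and 18 without animal 3.

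Narrower differences under DFMO included Th17 genes. Il17f stood at 1.83, 0.644 and 1.60 CPM in iTreg and 1540.0, 1350.0 and 1370.0 CPM in Th17p cells in vehicle, a difference of -10.03 ± 0.59, against -4.46 ± 0.45 under DFMO (DFMO minus vehicle 5.57 ± 0.75, edgeR adjusted p = 0.00097). Timp1, an inhibitor of matrix proteases, was at 0.43, 0.184 and 0.505 CPM against 577, 1059 and 910.4 CPM in vehicle and at 6.58, 10.54 and 2.62 CPM against 238, 166 and 203 CPM under DFMO (DFMO minus vehicle 6.17 ± 0.76). For both genes the iTreg libraries with DFMO lay above, and the Th17p libraries with DFMO below, those with vehicle. Socs3 (0.93 ± 0.15) and Il24 (4.20 ± 0.63) had narrower differences too. Without animal 2 the change was called for Il17f (edgeR adjusted p = 0.03) but not for Timp1, Socs3 or Il24 (edgeR adjusted p = 0.063, 0.097 and 0.14). Il17a was at 0.215, 0 and 0 CPM against 346, 531 and 359.6 CPM in vehicle, and with 3 or fewer counts in each iTreg group its fitted difference between treatments rests on the prior count and is not given.

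Wider differences under DFMO included genes high in Th17p cells. Gzmb stood at 21.3, 34.0 and 95.1 CPM in iTreg and 134, 90.5 and 157 CPM in Th17p cells in vehicle (-1.34 ± 0.50, not called), against -5.95 ± 0.74 under DFMO, a change of -4.62 ± 0.91 (edgeR adjusted p = 0.0097). Tgm2 was at 14.4, 32.3 and 52.4 CPM against 902, 648 and 845 CPM in vehicle (-4.58 ± 0.35), and its change was -4.61 ± 0.71. Stat4 was at 79.9, 137 and 162 CPM against 154, 159 and 165 CPM in vehicle, where it did not pass, and its change was -1.99 ± 0.38. Il23a, a subunit of IL-23, was at 6.13, 13.1 and 9.02 CPM against 6.83, 11.4 and 12.8 CPM in vehicle and at 0.248, 1.25 and 0.175 CPM against 11.1, 10.7 and 8.94 CPM under DFMO, a change of -3.95 ± 0.62. On the iTreg side, Lrrc32 (1.98 ± 0.29), Ikzf4 (0.88 ± 0.17), Capg (1.17 ± 0.18), Ccr4 (1.10 ± 0.15) and Selplg (0.92 ± 0.11) had wider differences. Without animal 2 the changes of Il23a, Ikzf4, Ccr4 and Selplg were called, and those of Gzmb, Tgm2, Stat4, Lrrc32 and Capg were not (edgeR adjusted p = 0.15, 0.16, 0.14, 0.081 and 0.11). The change for Foxp3, -1.36 ± 0.78, did not pass (edgeR adjusted p = 0.33).

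Of the called genes with an average log2 CPM of at least 2 and the same sign in all 3 animals, 1005 had little lineage difference in vehicle, under 0.25 on the log2 scale, leaving out predicted, histone and antigen receptor genes. Small vehicle differences were common, as the median absolute one over all 11526 tested genes was 0.31. The change between treatments was called for 294 of the 1760 genes called under DFMO and not in vehicle. Cyp11a1, the enzyme that starts steroid synthesis, stood at 11.1, 9.19 and 8.17 CPM in iTreg and 6.17, 13.2 and 11.9 CPM in Th17p cells in vehicle, and at 26.5, 33.0 and 24.3 CPM against 2.35, 4.37 and 3.06 CPM under DFMO (3.05 ± 0.32, change 3.20 ± 0.44, edgeR adjusted p = 0.00056). Gfpt2, which feeds the hexosamine pathway, stood at 4.09, 5.06 and 4.04 CPM against 2.86, 4.88 and 5.88 CPM in vehicle and at 11.6, 14.4 and 8.47 CPM against 1.12, 1.76 and 1.96 CPM under DFMO (2.79 ± 0.28, change 2.85 ± 0.38). Sla, an adaptor that dampens T cell receptor signals, stood at 156, 213 and 248 CPM against 232, 167 and 196 CPM in vehicle and at 36.6, 56.8 and 70.5 CPM against 320.1, 279 and 332 CPM under DFMO (-2.499 ± 0.30, change -2.55 ± 0.40). The small vehicle difference and the call under DFMO are how these genes were chosen. Without animal 2 the change was called for Cyp11a1 and Gfpt2 (edgeR adjusted p = 0.032 and 0.033) and not for Sla (edgeR adjusted p = 0.12).

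In 58 of 11526 tested genes the lineage difference was called in opposite directions under the treatments. The change was called in all 58. Differences of opposite sign add up in the change, so this call largely follows from the choice and is not a further result. Gcnt2, an enzyme of sugar chain branching, stood at 0, 1.38 and 0.0843 CPM in iTreg and 8.92, 7.90 and 8.91 CPM in Th17p cells in vehicle, and at 10.4, 19.0 and 5.67 CPM against 0.112, 0.988 and 0.426 CPM under DFMO. C3, a complement protein, was at 2.69, 0.736 and 1.43 CPM against 5.95, 10.3 and 11.02 CPM in vehicle and at 3.98, 8.38 and 7.16 CPM against 0.67, 1.69 and 0.255 CPM under DFMO. Il1rn, the antagonist of the IL-1 receptor, was at 22.1, 33.4 and 35.8 CPM against 77.8, 136 and 67.1 CPM in vehicle and at 101.3, 160.3 and 87.8 CPM against 34.5, 42.0 and 18.3 CPM under DFMO. Ctla2a and Ctla2b, near-identical protease inhibitor genes that can share reads, and Pdpn and Vdr moved the same way. Trat1, an adaptor of the T cell receptor, went from 34.3, 37.0 and 37.3 CPM against 10.0, 9.18 and 14.5 CPM in vehicle to 6.21, 3.24 and 7.07 CPM against 19.3, 18.1 and 21.5 CPM under DFMO. Under DFMO Il1rn was not called without animal 1 (edgeR adjusted p = 0.051), and Ctla2a was not called without animal 1 or animal 2 (edgeR adjusted p = 0.063 and 0.22). Without animal 2 the change was not called for Il1rn, Ctla2a, Ctla2b, Pdpn or Vdr (edgeR adjusted p = 0.054, 0.15, 0.081, 0.13 and 0.21), whereas Gcnt2, C3 and Trat1 kept the DFMO call and the called change with each animal left out. These genes were thus higher in Th17p cells with vehicle and in iTreg cells with DFMO, except Trat1, which did the reverse.

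**Figure D5:**
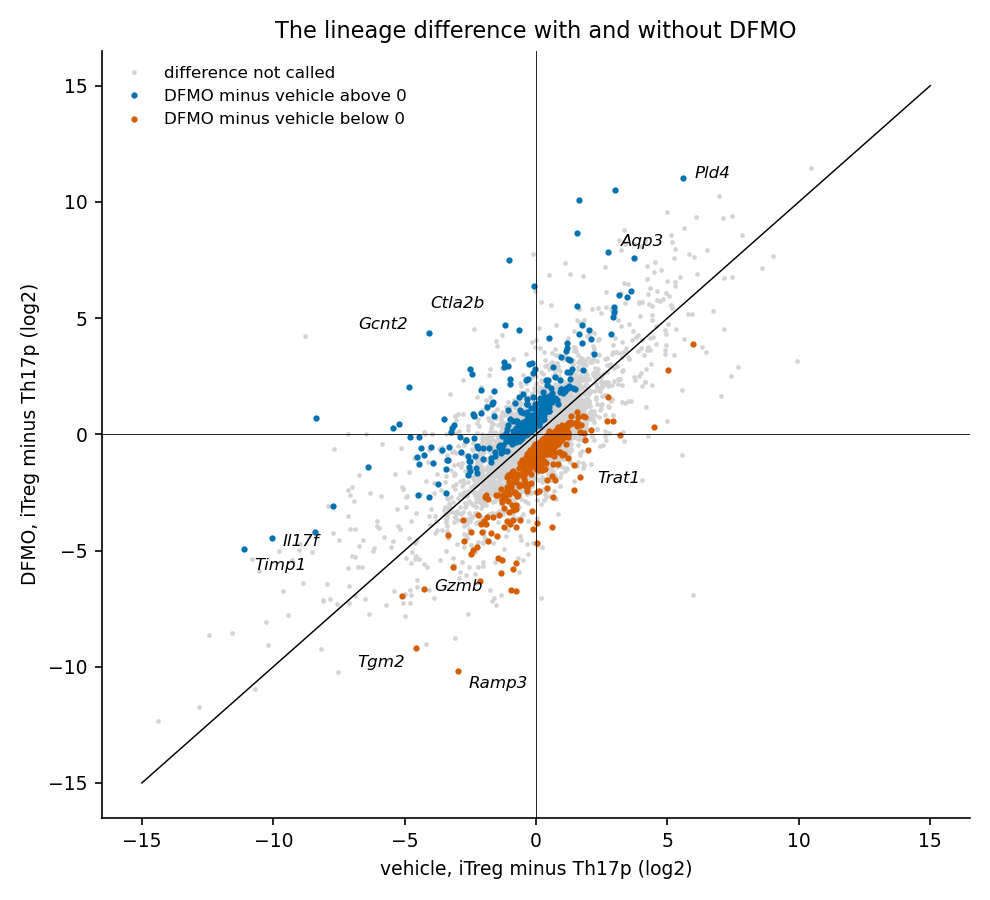
Log2 difference between iTreg and Th17p cells in vehicle (x axis) and under DFMO (y axis) for each of 11526 tested genes, with genes whose difference between treatments was called in blue (406, above 0) or orange (383, below 0); the line marks equal differences. Il17f and Timp1 lie far from the line at the left, Ramp3 and Tgm2 below it, and Gcnt2 and Ctla2b in the quadrant of opposite direction.

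Identity genes and markers of other cells were checked beside these results. Cd4 stood at 367, 417 and 387 CPM in iTreg and 308, 319 and 304 CPM in Th17p cells. Of 13 CD4 T cell identity genes 4 were higher, among them Thy1 (1.81 ± 0.12), and 6 lower. B cell markers summed to between 17.6 and 28.4 CPM in iTreg and between 19.8 and 25.6 CPM in Th17p libraries. In iTreg cells most of that was Cd79b (22.7, 14.3 and 14.2 against 0.447, 0.353 and 0.511 CPM, 5.26 ± 0.41) and in Th17p cells Ebf1 (0.248, 0.664 and 0.611 against 20.2, 24.3 and 16.9 CPM, -5.23 ± 0.42); Pax5 had 0 counts in iTreg cells. Of 5 tested of 9, 2 were higher, Cd79b and Blnk (3.25 ± 1.18), and 1, Ebf1, was lower. Blnk was not called without animal 1 or animal 2 (edgeR adjusted p = 0.13 and 0.2) or by DESeq2.

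Markers of NK and innate lymphoid cells summed to between 67.0 and 128 CPM in iTreg and 38.0 and 51.6 CPM in Th17p libraries, with 2 of 5 tested higher and 0 lower. The higher were Nkg7, a granule protein (83.6, 107 and 53.9 against 6.14, 5.01 and 4.85 CPM, 3.94 ± 0.35), and Kit (7.83, 8.72 and 8.21 against 0.447, 0.423 and 0 CPM, 4.79 ± 0.92). Klrd1 stood at 1.74, 1.49 and 0.262 against 0.782, 0.141 and 0.0851 CPM and did not pass (edgeR adjusted p = 0.081). Pairing the libraries by animal gave Klrd1 a call as higher. Il7r, most of the Th17p sums, was at 35.0, 9.79 and 4.63 against 44.2, 32.2 and 40.9 CPM. It did not pass either (edgeR adjusted p = 0.067). Klrb1c and Klre1 had 0 counts in all 6 libraries. CD8 markers summed to between 17.1 and 21.8 CPM in iTreg and between 17.5 and 19.8 CPM in Th17p libraries, with 1 of 3 tested, Cd8a (3.60, 2.49 and 2.27 against 0.559, 0.141 and 0.255 CPM), higher. Cd8b1, most of these sums, lay the other way, at 9.69, 13.3 and 13.7 against 18.1, 15.8 and 16.4 CPM, and did not pass (edgeR adjusted p = 0.14). Eomes, at 3.60, 2.57 and 5.68 against 1.01, 1.41 and 1.87 CPM, did not pass either (edgeR adjusted p = 0.14). Myeloid markers summed to between 80.5 and 95.7 CPM and between 97.5 and 110.7 CPM, nearly all Cst3, with 1 of 3 tested higher, Mpeg1 (10 counts in iTreg and 0 in Th17p libraries), and 1 lower, Cst3 (-0.25 ± 0.10), and 4 of 11 at 0 in all 6 libraries. Mpeg1 was not called with any 1 animal left out (edgeR adjusted p = 0.089, 0.16 and 0.14), nor was Cst3 without animal 1 or animal 2 (edgeR adjusted p = 0.48 and 0.15) or by DESeq2. Erythroid and platelet markers summed to at most 1.90 CPM, with 6 of 9 at 0. The part of other cells in the lineage differences was not tested.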

How the data were processed

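RNA of sorted live CD4 T cells was measured by paired-end full-length sequencing, per the labels' protocols. Expected counts and TPM per gene symbol were deposited by the authors, with Bowtie2, RSEM and GRCm38.p3 named in the submitters' processing notes; the versions and the strand setting are not given in the labels or notes used here. Expected counts were rounded and the 2 runs of each library summed. The runs differed by 1.148 to 1.54 chi-square per degree of freedom and animals of a group by 5.057 to 12.104, so that a run is not a replicate. Of 20817 symbols, 20079 matched GENCODE M21, which gave positions.

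One edgeR 4.0.16 quasi-likelihood model (R 4.3.3, TMM factors, filterByExpr, robust) covered all 18 libraries, with group means and p adjusted over 11526 genes. Its contrasts were iTreg minus Th17p under DFMO, in vehicle, and the difference of these. The deposited TPM (log2 of TPM plus 1, mean at least 1) served limma 3.58.1 as an alternative; the others were DESeq2 1.42.0, 2 other scalings, no filter, the compared libraries alone (6 for each lineage comparison, 12 for the difference), each run alone, each animal left out, and the animal as a block. Same-numbered libraries come from the same animal, per the labels; their deviations correlated at 0.0589, 0.1797 and 0.1749 over genes, and those of different animals between -0.1894 and 0.0181.

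The comparison, 44 gene lists (811 genes, 751 tested) and the rule for named genes were chosen with earlier results of these data known. Genes were named by rule: the 12 largest called differences each way with an average log2 CPM of at least 2, a fixed set of lineage and polyamine genes, the 4 list members with the smallest p, the 10 largest changes between treatments each way, up to 8 genes called in opposite directions, and up to 8 with a vehicle difference under 0.25. A few genes of the lists are not reported here. Other list members given in the text were chosen after their values were seen. Ratios against 1 to 3 counts have a 95% exact counting interval, which covers counting error only, and folds against 0 counts use a floor of 3 counts over the group.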

Additional observations from a re-analysis of the deposited data

Results flagged for a closer look

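The difference between treatments is iTreg over Th17p under DFMO minus the same in vehicle (edgeR, log2 scale). Its test was called for the 28 genes listed here, and for 6.85% of all tested genes. The 28 were fixed, chosen by size of change or chosen as called in opposite directions. Those chosen by size were taken from called genes, so their call is how they entered and not a further result. For those chosen as called in opposite directions, the call of the change largely follows from that choice. Each gene is given with that difference. Among genes fixed for the pathway and lineages it was -1.238 for Odc1, 0.685 for Amd1, 0.931 for Socs3, 5.575 for Il17f, 6.17 for Timp1, -1.154 for Ctla4 and -0.604 for Mki67.

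Values above 0 were also found for Gcnt2 (8.429), Ifit3 (6.441), Ctla2b (5.881), Pld4 (5.44), C3 (5.339), Aqp3 (5.068), Pdpn (5.022), Ltb4r1 (4.638), Il1rn (3.495), Ctla2a (3.011) and Vdr (2.141). Values below 0 were found for Ramp3 (-7.222), Gzmb (-4.617), Tgm2 (-4.611), Il23a (-3.953), Ntrk3 (-3.875), Galnt3 (-3.851), Trat1 (-3.525), Gpr34 (-3.239), Vat1 (-3.075) and Ccrl2 (-2.893). Some fitted values rest on a group with 3 or fewer counts and so on the prior count of the fit: Ltb4r1 had 2 counts in iTreg cells with vehicle, Pld4 0 in Th17p cells with DFMO, and Ramp3 2 in iTreg cells with DFMO. The call of Ifit3 was lost in the fit that paired libraries by animal (edgeR, block on animal, adjusted p = 0.0676). Without animal 2, Ifit3, Ctla2a, Ctla2b, Pld4, Aqp3, Pdpn, Ltb4r1, Il1rn, Vdr, Ramp3, Gzmb, Tgm2, Galnt3, Gpr34, Vat1 and Ccrl2 were not called either. Of the genes fixed for the pathway and lineages, the same holds for Amd1, Socs3, Timp1, Ctla4 and Mki67. Their causes were not tested.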

How the results depend on the processing

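Leaving out each animal in turn gave 1121 to 1413 higher and 1216 to 1702 lower genes under DFMO, and 1097 to 1232 higher and 1180 to 1421 lower genes in vehicle. For the difference between treatments it gave 67 to 276 genes above 0 and 40 to 288 below 0, with fewer samples in each fit. On log2 TPM 845 genes were higher under DFMO, and 237 above and 999 below 0 between treatments. Without scaling factors 261 lay above and 678 below 0. With the animal as a block the pairing gave 637 below and 600 above 0. The cause of these shifts was not tested. All 192 called genes that were named kept the DFMO call with the block, while Sat1 and Klrd1 gained one. Of these 192, 165 kept the call in every alternative that gave a value and 27 lost it in at least 1. The fitted difference between treatments reversed for GP49A (1.365) and Slc17a6 (-1.276) on log2 TPM, where both had groups near 0 counts. Depth limits genes at a few counts a group, such as Csf2, Ifng and Il10.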
